A study of Bos taurus and Bos indicus with 12 samples.

Results

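Skin of tick-infested Brahman cattle was compared with skin of Brahman cattle that had never been exposed to ticks. The Brahman, a zebu breed kept for beef in the tropics, is known to resist the cattle tick Rhipicephalus microplus. The arrays were chosen by their titles and are 6 of the 12 arrays in the study, 3 from infested and 3 from naive Brahman animals, all female and each on an array of its own. The infested animals were 6 months old, had been through successive heavy infestations and were sampled where larvae about a day old were attached. The naive animals were 18 months old. Every infested animal was therefore younger than every naive animal, and age and infestation cannot be told apart in any value below. The other 6 arrays came from infested Holstein-Friesian animals aged 6 months and naive ones aged 12 months, a taurine dairy breed. They shared the estimate of the spread, and are compared with the Brahman arrays only at the end. Each biopsy was a punch through the full thickness of the skin, which holds epidermis, hair follicles, glands, dermis, vessels, nerve and the tissue beneath, so fewer cells of a type and less RNA per cell cannot be told apart.

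Tick larvae cut through the epidermis and feed from the dermis, a bed of fibrillar collagen made by fibroblasts. Procollagen chains are modified and folded inside the fibroblast, trimmed outside it, and bundled into fibrils whose width and spacing are set by small leucine-rich proteoglycans. Cattle skin also carries sweat and sebaceous glands, which secrete through a simple epithelium and make fatty acids, and resident macrophages, dendritic cells and lymphocytes that meet tick saliva.

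Expression was measured as RMA values (robust multi-array average) on the log2 scale, 1 value per probe set and array, where a step of 1 is a doubling. Changes are infested minus naive, with the standard error (SE) of the fit and n = 3 arrays in each group. The test was limma's moderated test over 24016 probe sets, with Benjamini-Hochberg adjusted p under 0.05 as the threshold. A gene said to have risen or fallen passed it. A gene named as risen or fallen with no limit passed whichever of the 12 arrays was left out. The leading genes are the 15 of largest change each way among those that also passed without infested Brahman 1 and with the 5' index below, with no overlap between groups. Genes with probe sets called in opposite directions were left out of the leading genes. Genes were grouped in 58 lists with 1007 measured memberships, taking for each gene the probe set of highest mean signal, and over all 9155 genes so represented the median change was -0.02.

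The epidermal keratin genes that mark skin were at similar levels in both groups on their brightest probe sets. KRT5 read 14.05, 13.99 and 13.75 in naive Brahman 1, 2 and 3 and 13.86, 13.84 and 13.89 in infested Brahman 1, 2 and 3, a change of -0.06 (adjusted p = 0.759). KRT10 changed by -0.06 and KRT14 by 0.01. Another KRT5 probe set read 9.24, 8.75 and 8.57 in naive and 7.16, 8.33 and 8.51 in infested skin. It did not overlap between the groups and did not pass (-0.85, adjusted p = 0.103). The dermal genes COL1A1 and DCN were also among the bright probe sets in every array, and the labelled tissue matched its markers. The brightest HBB probe set of the red cell genes read between 5.07 and 5.50 in the 6 arrays, and none of its 4 probe sets passed.

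The infested arrays had less signal from the 5' end of transcripts. The array holds control transcripts probed at each end, which show how far labelling reached from the 3' end, and a 5' index was taken as the mean of the 5' minus 3' log2 signal over 6 of them. The index read -0.99, -1.26 and -1.34 in naive Brahman 1, 2 and 3 and -4.27, -2.17 and -1.76 in infested Brahman 1, 2 and 3. The groups did not overlap, with a difference of -1.54 (exact permutation test, two-sided p = 0.1, the smallest that 3 against 3 arrays can give). For EF1A the naive values lay between 1.51 and 1.60 and the infested values at -5.26, -0.83 and -0.12. Actin went the other way, by 1.99, and its probe sets are those of skeletal muscle actin, which was high in naive Brahman 2 and 3. Without actin the index differed by -2.24, and without infested Brahman 1 by -0.77. Added hybridisation spikes differed by -0.03 between the groups. The part of the 5' signal in the results below was not tested. The index was added as a covariate to the same model, and the named genes whose calls this ended are given with the p it left.

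**Figure D1:**
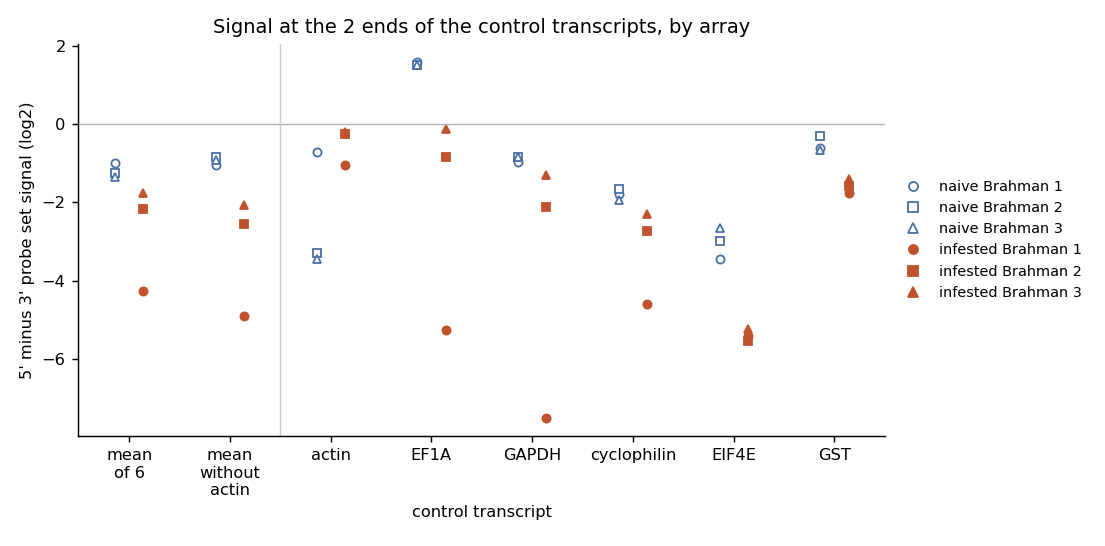
The 5' minus 3' signal (log2) of 6 control transcripts and their mean is plotted for the 3 naive and 3 infested Brahman arrays, 1 point per array. Infested Brahman 1 lies lowest for EF1A and the mean, at -5.26 and -4.27, and actin is the transcript that runs the other way.

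Of the 24016 probe sets, 4753 (19.8%) passed, 2292 higher (9.54%) and 2461 lower (10.2%) in infested skin, and 2358 of the changes were 2-fold or more. Centring the arrays on their medians moved all changes by 0.09 and made 60.2% of the calls higher, against 48.2% as deposited. Over genes 19.7% passed, 778 higher (8.5%) and 1028 lower (11.2%), which are the shares against which each list below is read. With the index in the model the shares of genes were 4.68% higher and 6.26% lower (10.9% in all; of probe sets 5.91% and 5%). Without infested Brahman 1 they were 7.91% higher and 11.7% lower (19.7% in all), and of probe sets 9.4% and 10.1% (19.5% in all). Values of infested and naive arrays were fully separate in 38.5% of probe sets. The count was 3154 without naive Brahman 1, 2702 without naive Brahman 2, 2216 without naive Brahman 3 and 2621 with the index in the model. Among the 4753 calls, 1927 passed whichever array was left out, 3558 passed without infested Brahman 1, and 1353 (28.5%) passed all these settings with no overlap between the groups. Of 266 genes with 2 or more called probe sets, 85 (32%) had calls both ways, so other probe sets of a gene are given where they went the other way.

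Of the 58 lists, the collagens had the largest share of members higher. Of 12 measured fibril and network collagens 8 rose and none fell, with a median change of 1.00, against 8.5% of all genes higher. The count lay between 6 and 9 when 1 array was left out. It was 7 with the index, but these included members that did not pass without it. Only 5 members passed all these settings with no overlap between the groups. COL5A2, whose chain starts fibrils and limits their width, read 7.70, 7.83 and 7.0 in naive and 9.67, 10.22 and 10.36 in infested skin, a rise of 2.57 ± 0.25, or 5.95-fold (adjusted p = 0.000304). COL5A2 is a leading gene, so no overlap between its groups is part of the rule that chose it. The fibril-associated collagen COL21A1 rose by 1.99 ± 0.22. COL3A1, the second fibril collagen of skin, read 13.12, 13.35 and 13.16 against 14.30, 14.39 and 14.41. COL1A2 rose by 1.18, and COL1A1 read 13.08, 13.30 and 13.17 against 13.74, 14.75 and 14.75. Infested Brahman 1 was the lowest of the infested arrays for COL1A1, yet above the naive ones.

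COL6A1 of microfibrils rose by 0.82, but did not pass with the index (adjusted p = 0.055). COL4A1 of basement membranes rose by 0.68 and COL15A1 by 0.75. COL4A1 did not pass without naive Brahman 3 (adjusted p = 0.0583), nor COL15A1 without naive Brahman 2 or 3 (adjusted p up to 0.0892), and neither passed with the index. The brightest probe sets of the other 4 did not pass, with changes of 0.23 for COL6A2, 0.36 for COL12A1, 0.84 for COL11A1 and 1.44 for COL18A1. On another probe set COL12A1 rose by 1.28 (adjusted p = 0.00324) and COL11A1 by 0.72 (adjusted p = 0.0214), while another of COL4A1 changed by -0.19. The mean list level, relative to naive skin, was 0.89, 1.20 and 1.22 in the infested arrays and between -0.14 and 0.12 in the naive ones.

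Some genes that process procollagen were also higher. PCOLCE, which speeds the removal of the C-terminal propeptide, had the smallest p of all: 8.96, 8.95 and 9.17 in naive and 11.71, 11.98 and 11.95 in infested skin. This is a rise of 2.85 ± 0.14, or 7.21-fold (adjusted p = 1.31e-05). Its other probe set read 8.28, 8.71 and 8.84 against 8.99, 10.63 and 10.48, a rise of 1.42 (adjusted p = 0.0253). FKBP7, a prolyl isomerase of the endoplasmic reticulum, rose by 2.46 ± 0.20, and its naive values lay between 6.72 and 6.79. P4HA2, which hydroxylates prolines so that the triple helix holds, rose by 1.33. In all 5 of 19 members rose and none fell (median 0.31). The other members higher were TRAM2 by 0.96 and FKBP10 by 1.41. The count was 3 without naive Brahman 3 and 3 with the index, under which TRAM2 (adjusted p = 0.193) and FKBP10 (adjusted p = 0.0954) did not pass. TRAM2 also did not pass without naive Brahman 1 or 3 or infested Brahman 1 or 2 (adjusted p up to 0.0755), nor FKBP10 without naive Brahman 2 or 3 or infested Brahman 2 or 3 (adjusted p up to 0.108).

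Among small leucine-rich proteoglycans, KERA and OGN had the largest rises of the leading genes. KERA encodes keratocan, a keratan sulphate proteoglycan best known from the cornea. It read 8.44, 8.14 and 7.39 in naive and 11.39, 12.65 and 12.30 in infested skin, a rise of 4.13 ± 0.47, or 17.5-fold (adjusted p = 0.000713). OGN, also called osteoglycin or mimecan, read 6.82, 7.12 and 7.56 against 11.31, 11.28 and 10.91, a rise of 4.0 ± 0.31, or 16-fold. For both, the gap between the groups exceeded the range within either group. LUM, which binds collagen fibrils, read 9.38, 8.72 and 8.58 against 11.28, 11.54 and 11.14, a rise of 2.42 ± 0.25. FMOD, another fibril-binding member, rose by 1.17.

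DCN, the most studied member of the family, read 12.25, 12.99 and 12.94 in naive skin and 13.50 to 13.55 in the infested arrays. Its rise of 0.80 did not pass without naive Brahman 1 or infested Brahman 2 or 3 (adjusted p up to 0.0795), nor with the index (adjusted p = 0.0977). The other 6 of the 11 measured members had changes between 0.01 and 0.39 and did not pass: CHAD, EPYC, BGN, ASPN, OMD and PRELP. In the bovine RefSeq gene order EPYC, KERA, LUM and DCN are neighbours, as are OGN, OMD and ASPN, and FMOD and PRELP. Members that rose and members that did not therefore lay next to each other: EPYC changed by 0.08 beside KERA, OMD by 0.28 beside OGN, and PRELP by 0.39 beside FMOD. EPYC and OMD were dim in both groups, with values of 3.66 to 4.59.

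**Figure D2:**
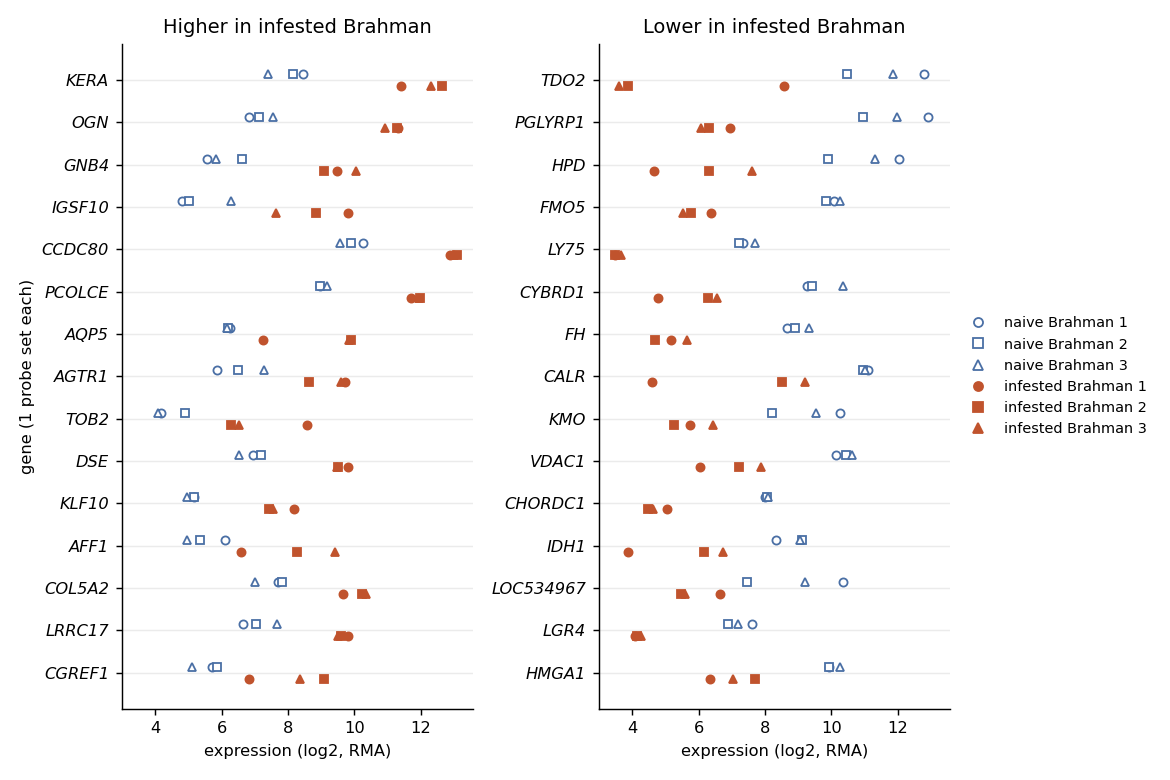
Expression (RMA, log2) is plotted for the 15 genes with the largest rise and the 15 with the largest fall among the leading genes, 1 point per Brahman array. No overlap between the groups is part of the rule that chose these genes. KERA and OGN have the largest rises and TDO2, PGLYRP1 and HPD the largest falls. TDO2 lies at 8.58 in infested Brahman 1 and under 4 in the other infested arrays.

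Some microfibril and adhesive glycoprotein genes of the dermis were also higher. FBN1, the fibrillin of microfibrils, rose by 2.04 ± 0.28 and EFEMP2, which guides elastic fibre assembly, by 1.35. FBLN5, with the same role, rose by 1.14 but did not pass with the index (adjusted p = 0.0987), nor did LTBP2 (0.49, adjusted p = 0.25). LTBP2 passed only when the array left out was naive Holstein-Friesian 3, infested Holstein-Friesian 1 or infested Brahman 2 (adjusted p up to 0.112 otherwise). In all 4 of 12 elastic fibre genes were higher and none lower. The level of the list was -0.06 in infested Brahman 1, within the naive range of -0.20 to 0.11, and 0.87 and 1.10 in the other infested arrays.

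FN1, fibronectin, read 10.41, 10.48 and 10.24 in naive and 12.35, 12.04 and 11.98 in infested skin, a rise of 1.75 ± 0.19. The groups were well apart. TGFBI, an adhesion protein, rose by 1.65, the matricellular thrombospondin THBS2 by 1.83 and CCN5 by 1.5. TNC, tenascin C, rose by 1.69 but not past the threshold without naive Brahman 1 (adjusted p = 0.0569). Neither TNC (adjusted p = 0.147) nor CCN5 (adjusted p = 0.0868) passed with the index. These were 5 of 14 matricellular genes, with none lower. DSE, the epimerase that makes dermatan sulphate from chondroitin sulphate, read 6.94, 7.19 and 6.53 against 9.80, 9.49 and 9.48, a rise of 2.70 ± 0.24, or 6.52-fold. CCDC80, a matrix glycoprotein gene, read 10.27, 9.90 and 9.57 against 12.89, 13.10 and 13.01, a rise of 8.49-fold, while its other probe set changed by 0.45 and did not pass.

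Of 18 matrix proteases and inhibitors 5 were higher and none lower. CTSK, a collagen-degrading cathepsin, rose by 1.49 ± 0.29 and the membrane metalloproteinase MMP23 by 1.99, with its other probe set at 0.60. TIMP1 and TIMP2, which inhibit metalloproteinases, rose by 1.08 and 1.06, and MMP16 by 1.01, with the lowest MMP16 probe set at -0.08. TIMP1 did not pass without naive Brahman 3 (adjusted p = 0.0735) or MMP16 without naive Brahman 1 (adjusted p = 0.0578). With the index 2 members were higher, and TIMP1, TIMP2 and MMP16 were not (adjusted p of 0.149, 0.101 and 0.136). Of 3 TIMP2 probe sets 2 rose, and the lowest changed by -1.21. The fibroblast markers as a list changed less clearly than the matrix genes, with 1 of 12 higher, the PDGF receptor gene PDGFRA by 1.42 on 1 of its 3 probe sets. Without infested Brahman 1, and with the index, 3 were higher. The count was 2 without naive Brahman 3, infested Brahman 2 or infested Holstein-Friesian 2.

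Signalling genes of growth and patterning moved in both directions. In the TGF-beta and BMP list 3 of 22 members were higher: BMP2 by 1.52 ± 0.25, the receptor gene TGFBR2 by 1.35 and the ligand gene TGFB3 by 1.19. The ligand gene TGFB1 fell by 1.10 and the signal transducer SMAD5 by 1.38, but neither passed with the index (adjusted p of 0.301 and 0.151) or without naive Brahman 2 or 3. The count of lower members was 1 without naive Holstein-Friesian 1 or 2 or infested Brahman 3. The call of TGFB1 was also lost without naive Holstein-Friesian 1 or 2 or infested Brahman 1 (adjusted p up to 0.116), and that of SMAD5 without infested Brahman 2 or 3 (adjusted p up to 0.117). The other SMAD5 probe set changed by 0.19.

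Of 15 Wnt genes 6 were higher, against 8.5% of all genes. FZD4, a receptor, read 5.40, 5.45 and 5.43 in naive and 7.36, 7.11 and 7.2 in infested skin, a rise of 1.79 ± 0.12 (adjusted p = 0.000142), with its other probe set at 0.26. FZD1 rose by 1.37, with its other probe set at -0.28. The secreted inhibitors SFRP4 and SFRP1 rose by 1.87 and 0.83, DKK3 by 1.19, and the Wnt amplifier RSPO3 by 1.34. SFRP1 (adjusted p = 0.0542) and DKK3 (adjusted p = 0.129) did not pass with the index. DKK3 was lost without naive Brahman 1 or 3 (adjusted p up to 0.061) and RSPO3 without naive Brahman 3 (adjusted p = 0.0536). The other DKK3 probe set fell by 1.37. The coreceptor LRP5 fell by 1.33 on its brighter probe set and rose by 0.66 on the other, and FRZB fell by 0.87 with groups that overlapped. FRZB passed only when the array left out was naive or infested Brahman 1 or infested Holstein-Friesian 1 or 2 (adjusted p up to 0.165 otherwise), which left LRP5 as the 1 member lower.

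Imprinted genes with roles in growth before and after birth were more often higher than genes at large, with 7 of 16 higher (median 0.66) and none lower. SGCE rose by 1.63 ± 0.23, with its other probe set at -0.39, MAGEL2 by 1.07, PLAGL1 by 1.14 and PEG10 by 0.59. MEG3, a long non-coding RNA, rose by 1.68, or by 2.28 with the index, on 1 of 5 probe sets, of which the lowest changed by -0.25. NDN rose by 1.14 and NNAT by 0.97. NDN was lost without naive Brahman 1 or 2 or infested Brahman 1 or 2 (adjusted p up to 0.102) and NNAT without naive Brahman 3 or infested Brahman 2 (adjusted p up to 0.0735). With the index 4 were higher, and PLAGL1 (adjusted p = 0.0657), NDN (adjusted p = 0.295) and NNAT (adjusted p = 0.0514) were not. The fetal growth factor gene IGF2 read 10.42, 10.69 and 10.74 in naive and 6.69, 10.09 and 10.25 in infested skin and did not pass (adjusted p = 0.137). In infested Brahman 1 it stood far below the rest, so its change was -0.45 without that array. Another IGF2 probe set read 9.74, 9.05 and 9.19 against 6.15, 9.53 and 9.89 (-0.80, adjusted p = 0.501). There infested Brahman 2 and 3 were not below the naive range. The remaining IGF2 probe sets changed by -0.41 and 0.14 and did not pass. IGFBP2, which binds insulin-like growth factors, fell by 1.99 ± 0.43 but not past the threshold with the index (adjusted p = 0.0813), and was the 1 of 13 genes of that axis to pass. Without naive Brahman 1 the count of lower members was 2. Without infested Brahman 1 IGF2R, IGFBP5 and GHR also passed, as higher, by 0.82, 1.34 and 1.67. The level of the list was -1.31 in infested Brahman 1 and -0.02 and 0.21 in the other infested arrays. No cell cycle gene passed, of 27 measured.

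Enzymes of tryptophan and tyrosine breakdown were among the largest falls. TDO2, the dioxygenase that starts tryptophan breakdown along the kynurenine route, read 12.79, 10.48 and 11.87 in naive and 8.58, 3.86 and 3.59 in infested skin. Infested Brahman 1 stood between the naive arrays and the other infested ones. The change was -6.37 ± 1.11, an 82.6-fold fall (adjusted p = 0.00419). The fold was 254 without infested Brahman 1, 49.4 without infested Brahman 2, 45 without infested Brahman 3, 127 without naive Brahman 2 and 280 with the index. KMO, the monooxygenase further along that route, read 10.26, 8.20 and 9.53 against 5.74, 5.27 and 6.44, an 11.4-fold fall.

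TAT, which takes the amino group off tyrosine, read 8.59, 7.16 and 8.27 in naive and 5.70, 4.76 and 5.24 in infested skin, a change of -2.77 ± 0.36. HPD, the dioxygenase of the next step, read 12.03, 9.89 and 11.30 against 4.66, 6.32 and 7.60, a 29.4-fold fall. Its change of -4.88 was -4.11 without infested Brahman 1, -5.58 without infested Brahman 3, -5.47 without naive Brahman 2 and -3.68 with the index. For all 4 enzymes naive Brahman 1 was the highest and naive Brahman 2 the lowest of the naive arrays. That order was not particular to them. It held in 7 of the 15 leading lower genes, PGLYRP1 included, and in NQO1, THRSP, KRT7, KRT18, KRT19 and AZGP1. The groups did not overlap for any of the 4 enzymes, which for TDO2, KMO and HPD is part of the rule for leading genes. Of the 11 measured members these 4 fell (11.2% of all genes did), and QDPR, which recycles the cofactor of tyrosine synthesis, rose by 0.85 (-0.15 on its other probe set). The later enzymes did not pass: KYNU changed by 0.02, HGD by -0.02, QPRT by 0.27 and FAH by -0.70. IDO1, the other tryptophan dioxygenase and an interferon target, changed by -0.31, and PCBD1 by -0.56. KYNU and HGD were dim in both groups, with values of 3.18 to 4.23, and QPRT and IDO1 were low, at 4.72 to 6.45. A fall in these genes could hardly have been seen. With the index 6 members were lower, FAH and PCBD1 included (adjusted p of 0.0324 and 0.0415).

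Of the 58 lists, that of the breakdown of branched-chain and other amino acids had the largest share of members lower. Of 20 members 12 fell (60%), with a median of -0.98. The 12 were the transaminase BCAT2, the ketoacid dehydrogenase subunits BCKDHA, BCKDHB and DBT, and the later enzymes IVD, MCCC1, HIBADH, HIBCH, PCCA, PCCB, MMUT and ALDH6A1. The first transaminase, the 3 subunits, HIBADH, HIBCH and PCCB passed whichever array was left out, and the other 5 did not. BCKDHA read 11.01, 10.80 and 10.77 in naive and 9.0, 9.69 and 9.67 in infested skin, a change of -1.41 ± 0.18. PCCB, a subunit of propionyl-CoA carboxylase, fell by 1.45, HIBCH by 1.25, BCKDHB by 1.21 and HIBADH by 1.03. DBT fell by 1.71 and BCAT2 by 1.33, each on 1 of 2 probe sets with the other at 0.18 and 0.23. The mean level of the list stood at -0.71, -0.74 and -0.67 in infested skin and between -0.11 and 0.07 in the naive ones. The count lay between 8 and 12 with 1 array left out and was 7 with the index, when BCAT2 (adjusted p = 0.0751), IVD (0.121), PCCA (0.0667), MMUT (0.104) and ALDH6A1 (0.155) did not pass. GLUD1 was the member that was higher, by 0.53 (-0.72 on its other probe set), but not with the index (adjusted p = 0.0596) or without naive Holstein-Friesian 3, naive Brahman 1 or 3 or any infested Brahman array (adjusted p up to 0.118).

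Genes of the citrate cycle and the respiratory chain were lower in part, while those of the mitochondrial ribosome had 3 of 27 members lower and 1 higher, near the share of all genes. The 3 were MRPL12 (-0.62), MRPL13 (-0.71) and MRPL39 (-0.74), and the 1 was MRPS14 (0.54). The count of lower members was 0 without naive Brahman 3, 1 without naive Brahman 2 or infested Brahman 3, 7 without infested Brahman 2 and 2 with the index. MRPS14 did not pass with the index (adjusted p = 0.172), and each of the 4 lost its call without at least 1 single array. MPC1, a subunit of the carrier that brings pyruvate into the mitochondrion, read 10.82, 10.90 and 11.10 in naive and 8.68, 9.20 and 8.67 in infested skin, a 4.26-fold fall (adjusted p = 0.000239). SDHA, the catalytic subunit of succinate dehydrogenase, fell by 0.97 ± 0.13, SDHC by 0.70 and DLAT of the pyruvate dehydrogenase complex by 1.21, on probe sets that ranged from -2.21 to 0.23. Fumarase, FH, fell by 3.79 on 1 probe set (8.66, 8.91 and 9.33 against 5.18, 4.69 and 5.65), or by 2.90 with the index. With the index without actin it did not pass (adjusted p = 0.076). On its brighter probe set FH read 10.62, 10.75 and 10.83 against 10.54, 9.63 and 9.86, a change of -0.73 that passed only when the array left out was infested Holstein-Friesian 1 or 3 or infested Brahman 1 (adjusted p up to 0.124 otherwise). The probe sets of FH thus gave very different changes. In the list of the citrate cycle and pyruvate entry 10 of 21 members fell and none rose, but 5 fell without naive Brahman 2, without naive Brahman 3 or with the index. Of 40 oxidative phosphorylation genes 14 fell and none rose (median -0.41). NDUFB3 of complex I fell by 0.86, and UQCRB and UQCRFS1 of complex III by 0.59 and 0.63, with the other UQCRB probe set at 0.74. UQCRFS1 did not pass without naive Brahman 2 (adjusted p = 0.0535). The count was 7 without naive Brahman 1, 2 without naive Brahman 2, 4 without naive Brahman 3, 9 without infested Brahman 3 and 4 with the index.

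In fatty acid beta-oxidation 9 of 18 members fell and none rose (median -0.68). The first-step dehydrogenase ACADVL fell by 1.63, HADHA by 1.32 and ECI2 by 1.45. With the index none of these 3 passed (adjusted p of 0.0796, 0.0819 and 0.0816) and 1 member of the list was lower. The count was 4 without naive Brahman 2 and 3 without naive Brahman 3. Skeletal muscle, rich in mitochondria, was unevenly present in the naive biopsies: the level of 26 muscle genes was -1.36, 0.43 and 0.93 in naive Brahman 1, 2 and 3 and between -1.33 and -1.09 in the infested arrays. In naive Brahman 1, where muscle genes were at the infested level, MPC1 read 10.82, SDHA 10.40 and BCKDHA 11.01, against 9.20, 9.50 and 9.69 in the highest infested array. The part of muscle in the list counts was not tested. Glycolysis genes had 2 of 17 members lower, near the share of all genes. These were the glucose transporter SLC2A1 (-1.15) and ALDOA (-1.27), neither of which passed with the index (adjusted p of 0.0649 and 0.36). ALDOA was lost without any single naive array of either breed or infested Brahman 2 (adjusted p up to 0.11). The count was 1 without any single naive array and 4 without infested Brahman 3.

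Enzymes that handle quinones, peroxides and foreign compounds were lower, with 15 of 33 members lower, 2 higher and a median of -0.83. NQO1, a quinone reductase, read 13.07, 11.63 and 12.52 in naive and 10.14, 9.50 and 9.01 in infested skin, a 7.24-fold fall (adjusted p = 0.00117). The groups did not overlap. The microsomal glutathione transferases MGST1 and MGST2 fell by 1.62 and 1.58, the peroxiredoxin PRDX1 by 0.97, superoxide dismutase SOD1 by 1.06 and GCLM, of glutathione synthesis, by 1.57. FMO5, a monooxygenase, read 10.08, 9.85 and 10.27 against 6.36, 5.77 and 5.54. FMO5 fell on 3 of 5 probe sets, and the smallest of the 5 changes was -0.22. Its brightest probe set in these arrays read 12.04, 11.57 and 11.33 against 11.45, 11.28 and 10.87. That change of -0.44 did not pass (adjusted p = 0.144). GPX7, a peroxidase of the endoplasmic reticulum, went the other way: 6.35, 6.75 and 6.50 against 8.81, 9.11 and 8.73, a rise of 2.35 ± 0.20. CYP2B6 was the other member higher, at 10.18 and 10.43 in infested Brahman 1 and 2 but 5.26 in infested Brahman 3. Its adjusted p was 0.0498, and it passed neither with the index nor with any array but infested Brahman 3 left out (adjusted p up to 0.148). Its rise of 3.29 was 2.52, 2.39 and 4.97 without infested Brahman 1, 2 and 3. The count of lower members was 8 without naive Brahman 2, 9 without naive Brahman 3 and 8 with the index.

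**Figure D3:**
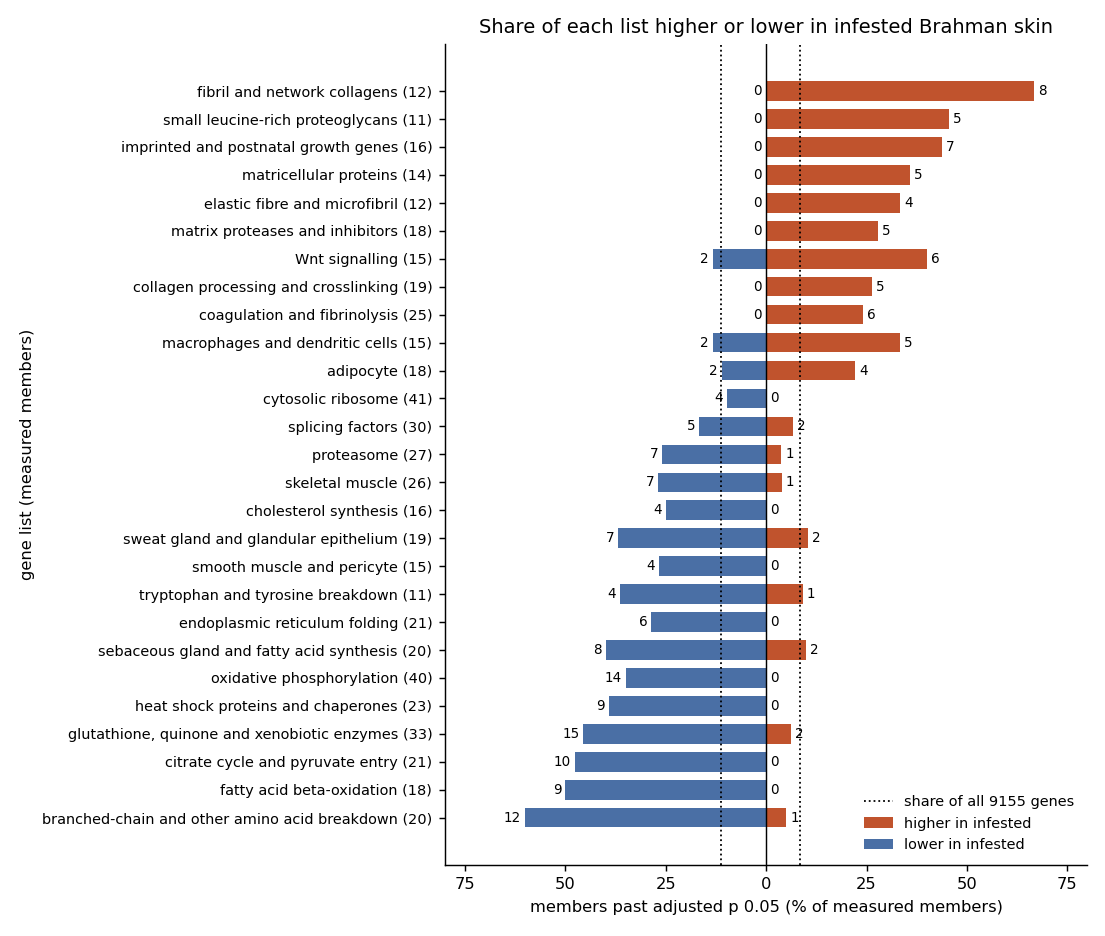
Bars give the share of measured members (percent) that passed as higher or lower in infested Brahman skin, with counts at the bar ends, for the 27 lists with at least 4 called members in a direction. The dotted lines mark the shares over all genes, 8.5% higher and 11.2% lower. Collagens reach 8 of 12 on the higher side and amino acid breakdown 12 of 20 on the lower side.

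Chaperone and protein turnover genes were lower in part. Heat shock proteins and chaperones had 9 of 23 members lower and none higher. HSP90AA1 fell by 1.01, HSPH1 by 1.54 (and by 1.12 and 0.95 on 2 other probe sets), and the cochaperone STIP1 by 1.23. CHORDC1, a partner of HSP90, read 8.01, 8.06 and 8.10 in naive and 5.05, 4.48 and 4.61 in infested skin. With the index 1 member of the chaperone list was lower, HSP90AA1 (adjusted p = 0.058) and STIP1 (adjusted p = 0.0721) not. The count was 4 without naive Brahman 2 and 3 without naive Brahman 3. In the proteasome 7 of 27 members fell, PSMB6 by 1.08 and PSMA5 by 0.89, and 1 rose. The count of lower members was 3 without naive Brahman 2, 2 without naive Brahman 3 and 2 with the index. The rise was in PSMD11 (0.48), and ended without naive Holstein-Friesian 1, any naive Brahman array or infested Brahman 2 or 3 (adjusted p up to 0.119).

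Of 21 genes of endoplasmic reticulum folding 6 fell, among them the stress-response factor ATF4 by 1.10, which did not pass with the index (adjusted p = 0.0723). The count was 3 without naive Brahman 1 or 2 and 1 without naive Brahman 3. CALR, the calcium-binding chaperone calreticulin, read 11.09, 10.96 and 11.02 in naive and 4.60, 8.51 and 9.21 in infested skin. Its change of -3.58 was -2.16 when infested Brahman 1 was left out and -4.47 when infested Brahman 3 was, and did not pass without any single naive Brahman array (adjusted p up to 0.0844). With the index it was -0.95, and with the index without actin -0.20 (adjusted p = 0.729). Among 30 splicing factors 2 rose and 5 fell. HNRNPD rose by 1.16, and TRA2B and HNRNPH1 fell by 1.17 and 1.08. SRSF7 (-0.78), PTBP1 (-1.69) and HNRNPL (-1.76) were the other members lower. None of these 3 passed whichever array was left out, and PTBP1 and HNRNPL did not pass with the index (adjusted p of 0.32 and 0.462). HNRNPK rose by 0.72 on 1 probe set and fell by 0.80 on the other. The lower count was 3 without naive Brahman 1 and 2 without naive Brahman 2 or 3 or infested Brahman 3, and the higher count 4 without infested Brahman 3. Cytosolic ribosomal proteins had 4 of 41 members lower, near the share of all genes: RPL3 (-0.47), RPL10A (-0.60), RPL19 (-0.63) and RPL22 (-0.41). None was lower without naive Brahman 2, 1 without naive Brahman 3 and 2 without naive Holstein-Friesian 1 or 2, naive Brahman 1 or infested Brahman 2 or 3. With the index RPL10A (adjusted p = 0.141), RPL19 (0.172) and RPL22 (0.123) did not pass. Other probe sets of RPL3 and RPL19 changed by 0.35 and 0.39.

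Genes of glandular epithelium were lower in part, while the surface keratins KRT5, KRT10 and KRT14 did not pass. The simple-epithelium keratins KRT7, KRT18 and KRT19 fell by 2.08 ± 0.26, 2.34 ± 0.33 and 2.66 ± 0.45. KRT19 read 12.92, 11.54 and 12.67 in naive and 9.11, 9.55 and 10.47 in infested skin. AZGP1, a secreted zinc-binding glycoprotein of glands, read 11.99, 11.14 and 11.92 against 8.84, 9.01 and 8.72, a 7.1-fold fall. The carbonic anhydrase CA2 fell by 1.51 and the adhesion gene EPCAM by 1.17. PIGR, which carries antibodies into secretions, changed by -1.65 and did not pass with the index (adjusted p = 0.0536) or with every array left out in turn. These were 7 of 19 members lower, with a count between 6 and 8 when an array was left out. The water channel AQP5 rose instead, from 6.25, 6.2 and 6.16 to 7.24, 9.89 and 9.85, by 2.79 ± 0.61, or by 3.66 without infested Brahman 1 and 3.60 with the index. The gland transcription factor ELF5 rose by 1.54. Naive Brahman 2 was the lowest naive array for KRT7, KRT18, KRT19 and AZGP1, and the groups did not overlap for any of them.

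Sebaceous gland and fatty acid synthesis genes had 8 of 20 members lower and 2 higher, with a median of -0.65. THRSP, a regulator of fat synthesis, read 12.38, 11.21 and 11.86 in naive and 9.40, 8.68 and 9.02 in infested skin, a change of -2.78 ± 0.34. Malic enzyme ME1 fell by 2.19 on 1 probe set and 2.09 on the other, the elongase ELOVL6 by 2.17 and the carboxylase ACACA by 0.94. The desaturase SCD fell by 1.94, or by 2.61 without naive Brahman 2, but did not pass without naive Brahman 3 (adjusted p = 0.0603) or with the index (adjusted p = 0.0599). The synthase FASN fell by 1.40, but did not pass without naive Brahman 2 (adjusted p = 0.061) or with the index (adjusted p = 0.15). ELOVL5 and FADS2, which make long polyunsaturated fatty acids, rose by 0.72 and 0.78, neither with the index (adjusted p of 0.0796 and 0.079). ELOVL5 was lost without naive Brahman 1 or 3 (adjusted p up to 0.0622), which left 1 member higher. The count of lower members was 5 without naive Brahman 2, without naive Brahman 3 or with the index.

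Of 16 cholesterol synthesis genes 4 were lower: PMVK by 1.06, NSDHL by 0.70, TM7SF2 by 1.94 and LSS by 0.81. TM7SF2 was lost without naive Brahman 2 or 3 (adjusted p up to 0.054) and LSS without naive Brahman 3 (adjusted p = 0.0596), and without naive Brahman 3 the count was 2. Neither passed with the index (adjusted p of 0.109 and 0.0738), and the probe sets of LSS ranged from -1.55 to 0.35. Adipocyte genes went both ways, with 4 of 18 higher and 2 lower. Lipoprotein lipase LPL read 6.39, 6.71 and 6.48 in naive and 9.68, 7.90 and 8.96 in infested skin, and the fat cell regulator PPARG 8.19, 9.52 and 9.76 against 7.28, 7.02 and 7.17. LEP (0.52), CIDEC (1.73) and LIPE (1.05) were the other genes higher and AGPAT2 (-1.32) the other lower, and none of these passed with the index (adjusted p between 0.133 and 0.346) or without naive Brahman 2 or 3 (adjusted p up to 0.125). The change of CIDEC was 1.13 when infested Brahman 1 was left out and 2.34 when infested Brahman 2 was, and AGPAT2 -0.72 without infested Brahman 1. Without naive Brahman 2 or 3 the higher count was 1. The lower count was 1 without any single naive array of either breed and 4 without infested Holstein-Friesian 1. The defining fat markers ADIPOQ (0.71, adjusted p = 0.0612) and FABP4 (1.54, adjusted p = 0.373) did not pass.

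No gene of epidermal differentiation passed, of 9 measured. The list level was -1.12 in infested Brahman 1 and -0.08 and under 0.01 in size in the other infested arrays. SFN, an adaptor protein of keratinocytes, stood at 5.43 in infested Brahman 1 against 10.66 and 10.51, and did not pass (adjusted p = 0.0834). The desmosomal cadherin DSC2 rose by 1.52 ± 0.21, 1 of 9 genes. The wound keratin KRT6B read 7.92, 7.86 and 6.89 in naive and 10.69, 10.05 and 11.22 in infested skin, with no overlap, and IL1RN rose by 0.91. Both calls were close to the threshold (adjusted p of 0.0422 and 0.0369) and ended with the index (adjusted p of 0.134 and 0.172). KRT6B passed only when the array left out was naive Holstein-Friesian 2 or 3 or infested Holstein-Friesian 1 (adjusted p up to 0.137 otherwise). IL1RN was lost without naive Holstein-Friesian 1 or 3, any naive Brahman array or infested Brahman 1 or 2 (adjusted p up to 0.131).

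**Figure D4:**
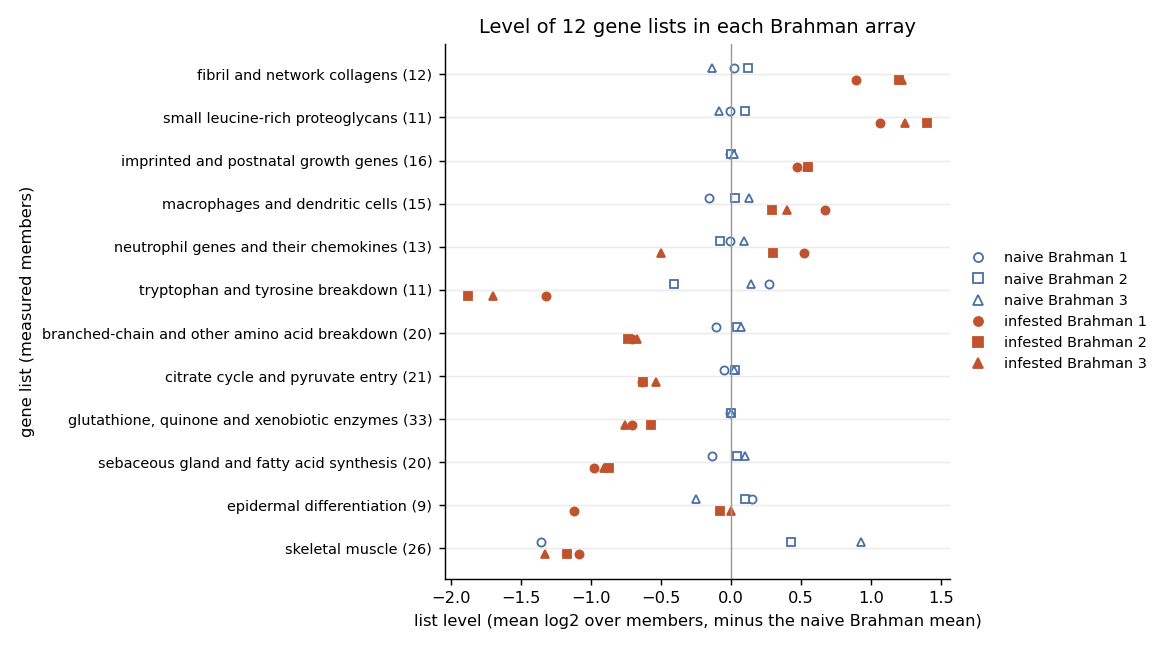
The level of 12 gene lists, as the mean over members of each array's value minus the naive Brahman mean (log2), is plotted for the 6 Brahman arrays. Collagens lie at 0.89 to 1.22 in the infested arrays and branched-chain amino acid breakdown at -0.74 to -0.67, while skeletal muscle genes are as low in naive Brahman 1, at -1.36, as in the infested arrays.

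Most immune lists had few members past the threshold, with some large changes in single genes. PGLYRP1, a peptidoglycan recognition protein known from neutrophil granules, read 12.91, 10.94 and 11.98 in naive and 6.94, 6.31 and 6.08 in infested skin, a 45.2-fold fall (-5.50 ± 0.43, adjusted p = 0.000163). No other member of the neutrophil list fell, but several were dim in naive skin already, as given below. The neutrophil chemokine CXCL5 read 4.55, 4.25 and 4.80 against 8.88, 8.40 and 4.87, so infested Brahman 3 stood close to the naive level. Its rise of 2.85 (adjusted p = 0.0289) was 4.10 without that array and 2.10 without infested Brahman 1. It did not pass without infested Brahman 1 or 2 or any single naive Brahman array (adjusted p up to 0.0862), nor with the index (adjusted p = 0.241).

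CXCL8 and CXCL2, chemokines of the same receptors, showed the same split between infested arrays. CXCL8 read 7.51, 7.37 and 4.78 in infested skin and CXCL2 6.22, 6.94 and 4.16, and neither passed (adjusted p of 0.17 and 0.343). ELANE, neutrophil elastase, rose by 0.68 at low signal, from 3.83 to 4.12 up to 4.47 to 4.95, and did not pass without naive Brahman 3 (adjusted p = 0.0648) or with the index (adjusted p = 0.111). MPO, CAMP and ITGAM changed by 0.20, 0.21 and 0.09 and did not pass. They were dim in both groups, with values of 3.91 to 5.68. A fall in these genes or in ELANE could hardly have been seen, so they are no contrast to PGLYRP1. Of the 13 members 2 were thus higher, 1 without naive Brahman 1 or 2 or infested Brahman 1 or 2, and none without naive Brahman 3 or with the index.

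Macrophage and dendritic cell genes had 5 of 15 members higher and 2 lower. The scavenger receptor MSR1 read 5.26, 5.25 and 5.10 in naive and 7.35, 7.21 and 7.46 in infested skin, a rise of 2.14 ± 0.18 on 1 of 3 probe sets. CD5L, a secreted macrophage protein, read 4.51, 5.17 and 5.75 against 7.44, 7.78 and 7.47, and the endotoxin coreceptor CD14 rose by 1.49. AIF1 rose by 1.21 (adjusted p = 0.0482), but not with the index (adjusted p = 0.372), and passed only when the array left out was infested Brahman 2 or 3 (adjusted p up to 0.135 otherwise). FCGR1A rose by 0.89, but not past the threshold without naive Brahman 2 or 3 (adjusted p up to 0.0645). Without naive Brahman 3 the count was 3. The pan-macrophage gene CD68 changed by 1.19 and did not pass (adjusted p = 0.0673). LY75, the endocytic receptor DEC-205 of dendritic cells, read 7.33, 7.21 and 7.69 against 3.48, 3.47 and 3.67, a 14.6-fold fall. The inhibitory Fc receptor FCGR2B read 8.99, 8.17 and 8.85 against 7.0, 6.40 and 5.61, a change of -2.33, or of -2.93 with the index. The groups did not overlap for FCGR2B, nor for LY75, where the rule for leading genes asks for it.

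Lymphocyte markers showed little. Of 20 T cell and cytotoxic genes 3 were higher: the kinase LCK by 0.79, CD8A by 1.09 and CD8B by 0.62. For LCK 2 of 3 probe sets rose and the other fell by 0.61, and it did not pass with the index (adjusted p = 0.12). CD8A passed only when the array left out was infested Holstein-Friesian 1 or 2 or infested Brahman 3, and CD8B only for naive Holstein-Friesian 2 or infested Holstein-Friesian 1 (adjusted p up to 0.163 otherwise). CD8A also did not pass with the index (adjusted p = 0.283). CD3E, which all T cells carry, changed by -0.51 and CD2 by 0.69, and neither passed. The B cell gene CD79A (0.07) and the antibody genes JCHAIN (0.02 ± 0.67) and IGHM (-0.05 ± 0.67) did not pass, with wide errors for the antibody genes. Of 10 B cell and plasma cell genes 1 was higher, PRDM1, a transcription factor of plasma cells that epithelia also use, by 0.80, and all 3 of its probe sets rose (0.80, 0.85 and 1.12). PRDM1 did not pass with the index (adjusted p = 0.199), and passed only when the array left out was naive Brahman 2, infested Brahman 2 or infested Holstein-Friesian 1 (adjusted p up to 0.14 otherwise). No interferon-stimulated gene (of 21) and no leukocyte adhesion gene (of 17) passed. Of 31 cytokine and CC chemokine genes 1 was higher, the lymph node chemokine CCL21 by 1.28, but not with the index (adjusted p = 0.314). CCL21 passed only when the array left out was naive Holstein-Friesian 2, infested Holstein-Friesian 1 or 2 or infested Brahman 3 (adjusted p up to 0.133 otherwise). KIT, the stem cell factor receptor of mast cells and melanocytes, rose by 1.16 on 1 of 4 probe sets, but not without naive Brahman 1 or 3 or infested Brahman 1 (adjusted p up to 0.0839) or with the index (adjusted p = 0.212).

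Coagulation genes were higher in 6 of 25 cases and lower in none. F13A1, the fibrin crosslinking factor carried by dermal macrophages, read 9.09, 9.69 and 9.73 in naive and 12.18, 11.13 and 12.12 in infested skin, a rise of 2.31 ± 0.35 seen in 2 of 3 probe sets. The anticoagulant genes PROS1, PROCR and THBD, which act in the protein C pathway, rose by 1.98, 1.67 and 1.15. The other probe set of PROS1 changed by -0.23. F5 (0.94) and FGL2 (1.47) were the other members higher, and neither passed with the index (adjusted p of 0.33 and 0.216). F5 passed only when the array left out was infested Holstein-Friesian 1 or infested Brahman 2 or 3 (adjusted p up to 0.124 otherwise), and FGL2 did not pass without naive Brahman 1, 2 or 3 or infested Brahman 1 or 3 (adjusted p up to 0.115). Complement had 2 of 22 members higher, C3 by 0.98 (its other probe sets changed by -0.13) and C1QB by 1.14, close to the share of all genes, and neither passed with the index (adjusted p of 0.291 and 0.161). None was higher without any single naive Brahman array or infested Brahman 3, 1 without infested Holstein-Friesian 2 or naive Holstein-Friesian 3, and 4 without infested Brahman 2.

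Skeletal muscle genes fell in 7 of 26 cases, in a comparison that rests on naive Brahman 2 and 3. The actin gene ACTA1 read 4.84 in naive Brahman 1, 10.32 in naive Brahman 2 and 10.59 in naive Brahman 3, against 4.60 to 4.73 in infested skin, and did not pass (adjusted p = 0.0525). MYBPC1 read 5.59, 6.90 and 7.84 against 4.09 to 4.37, a change of -2.56, or of -3.15 without naive Brahman 1. The count was 16 without naive Brahman 1 and 1 without naive Brahman 2 or 3, 4 without naive Holstein-Friesian 3, 3 without infested Brahman 2, 2 without infested Brahman 3 and 1 with the index. CKM rose by 1.25 on 1 probe set and fell by 1.96 on the other. CALD1, the caldesmon of smooth muscle, read 8.34, 8.64 and 9.35 against 6.47, 5.49 and 6.33. ACTA2, CNN1 and MYH11 also fell, by 1.07, 1.30 and 0.96, making 4 of 15, but none of these 3 passed with the index (adjusted p of 0.427, 0.155 and 0.149) or without naive Brahman 1 or 3 (adjusted p up to 0.14). The count was 1 without naive Brahman 1 or 3, 2 without any naive Holstein-Friesian array, naive Brahman 2, infested Holstein-Friesian 3 or infested Brahman 2, and 7 without infested Brahman 3.

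Other cell types of the skin changed in few genes. The brightest probe sets of the endothelial genes PECAM1, CDH5 and VWF changed by -0.01, 0.27 and -0.53 and did not pass. Another probe set of CDH5 fell by 0.79 (adjusted p = 0.0329) and another of VWF rose by 0.49 (adjusted p = 0.0448), each against the sign of the brighter one. TIE1 and PLVAP fell by 1.17 and 1.06, 2 of 16, but none was lower without naive Brahman 2 or 3, and 1 without naive Brahman 1 or infested Brahman 3. TIE1 also did not pass without infested Brahman 1 (adjusted p up to 0.121) or with the index (adjusted p = 0.194). The lymphatic marker LYVE1 read 5.46, 7.51 and 6.47 in naive and 9.57, 7.35 and 8.92 in infested skin, so the groups overlapped. Its rise of 2.14 was 2.77 without infested Brahman 2, and ended without naive Brahman 1 or 3 or infested Brahman 1 or 3 (adjusted p up to 0.0742) and with the index (adjusted p = 0.173). CCL21, above, was the other of 5 lymphatic genes higher. PDPN (0.38), FLT4 (0.37) and MMRN1 (1.51) did not pass. Of 12 pigment cell genes 1 was higher, ASIP by 0.63 (adjusted p = 0.0458) with groups that overlapped, and 1 lower, TYRP1. No member was higher without naive or infested Brahman 2 or 3 or naive or infested Holstein-Friesian 2 or 3, and 2 were with the index. TYR, DCT and PMEL did not pass, and TYRP1 read 8.94, 10.00 and 7.74 against 4.98, 5.30 and 8.19, with overlap. Its change of -2.73 was -3.75 when infested Brahman 3 was left out and -2.15 when infested Brahman 1 was. The call of TYRP1 ended without infested Brahman 1 or 2, naive Brahman 1 or 2 or naive Holstein-Friesian 1 (adjusted p up to 0.123), and with the index (adjusted p = 0.277). The nerve marker S100B did not pass, nor did the brightest probe set of MBP (0.40), though another of MBP fell by 0.74 (adjusted p = 0.0337). MAL, a myelin protein also made by epithelia, rose by 1.54 but not past the threshold with the index (adjusted p = 0.0509). The positional genes HOXB3 and HOXB4 rose by 2.35 ± 0.32 and 1.29, 2 of 11 measured. PITX1 fell by 0.78, but not past the threshold without naive Brahman 1 or 3 or infested Brahman 2 or 3 (adjusted p up to 0.0886), where no member was lower. The other PITX1 probe set changed by -1.84 (adjusted p = 0.00879). The count of lower members was 4 without infested Brahman 1, 2 without naive Holstein-Friesian 3 and 5 with the index. HOXA5, HOXA9 and HOXA10 were among them in both of the larger counts, and HOXA9 changed by -3.86 without infested Brahman 1 against -2.39 with it (adjusted p = 0.091).

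Several leading genes lay outside the groups above. GNB4, a G protein beta subunit, read 5.56, 6.60 and 5.82 in naive and 9.47, 9.07 and 10.04 in infested skin, an 11.6-fold rise. IGSF10 read 4.81, 5.01 and 6.29 against 9.81, 8.83 and 7.65. AGTR1, the angiotensin II receptor, read 5.85, 6.50 and 7.27 against 9.71, 8.62 and 9.59, a rise of 2.77. KLF10, a transcription factor induced by TGF-beta, read 5.16, 5.17 and 4.94 against 8.18, 7.43 and 7.55, a 6.19-fold rise on 1 of its 2 probe sets. The other, brighter KLF10 probe set changed by 0.19 and did not pass. The rule for leading genes asks that the groups do not overlap, and of these 4 genes IGSF10 was the most variable. With the index IGSF10 rose by 2.37 against 3.39, and with the index without actin it did not pass (adjusted p = 0.0568).

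LRRC17 rose by 2.53 ± 0.27. CGREF1 rose by 2.53, or by 3.17 without infested Brahman 1, and TOB2 by 2.73, or by 2.01 without infested Brahman 1. With the index TOB2 rose by 1.63, and with the index without actin it did not pass (adjusted p = 0.0977). The brighter TOB2 probe set changed by 0.81 (adjusted p = 0.0223). AFF1 rose by 2.62, by 3.97 with the index, by 3.37 without infested Brahman 1 and by 1.95 without infested Brahman 3, and did not pass without naive Brahman 3 (adjusted p = 0.0566). The brighter AFF1 probe set changed by 0.72 with groups that overlapped, and did not pass (adjusted p = 0.288). On the lower side HMGA1, a chromatin protein of growing cells, read 9.93, 9.92 and 10.26 against 6.34, 7.69 and 7.05, an 8.04-fold fall (adjusted p = 0.000287). The iron reductase gene CYBRD1 fell by 3.81, the receptor gene LGR4 by 3.07 and the porin gene VDAC1 by 3.35, each on a probe set whose partner changed less, by -0.28, -0.36 and -0.79. With the index CYBRD1 changed by -2.30, LGR4 by -2.30 and VDAC1 by -2.01. With the index without actin CYBRD1 (adjusted p = 0.0657) and LGR4 (adjusted p = 0.0692) did not pass. IDH1, the cytosolic isocitrate dehydrogenase, fell by 3.24 on 1 probe set, or by 2.39 without infested Brahman 1. With the index it changed by -1.64. Another IDH1 probe set fell by 0.62, and the brightest changed by -1.49 and did not pass. LOC534967 fell by 3.11, by 2.44 without naive Brahman 1 and by 3.88 without naive Brahman 2.

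The Holstein-Friesian arrays, which share no array with the Brahman comparison but have the same kind of age gap, gave 1206 calls (5.02%). Of the 4753 Brahman calls 4533 (95.4%) had the same sign in Holstein-Friesian skin, against 73.1% of all probe sets. In both breeds 895 probe sets passed in the same direction, 18.8% of the Brahman and 74.2% of the Holstein-Friesian calls. Of the 15 leading genes higher in Brahman skin 14 had the same sign and 9 passed, and CGREF1 (-0.21) had the other sign. Of the 15 leading lower genes 15 had the same sign and 5 passed. PGLYRP1 changed by -5.77 in Holstein-Friesian skin against -5.50 in Brahman, HMGA1 by -2.70 against -3.01, and CD5L by 3.54 against 2.42. Among matrix genes the estimate was larger in Brahman skin for some, and larger in Holstein-Friesian skin or near equal for others. The breed difference did not pass for any of those named next. KERA changed by 4.13 in Brahman against 2.09, OGN by 4.0 against 1.78 and COL1A1 by 1.23 against -0.04, while CTSK changed by 1.49 against 2.06 and THBS2 by 1.83 against 1.80. The median of the collagens was 1.00 in Brahman and 0.23 in Holstein-Friesian skin, and that of the matricellular genes 0.56 and 1.03. The 5' index read -1.26, -1.07 and -1.24 in naive and -2.35, -0.57 and -1.06 in infested Holstein-Friesian 1, 2 and 3. These groups overlapped, while those of the Brahman did not. The part of this unequal 5' signal in the differences between the breeds was not tested.

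**Figure D5:**
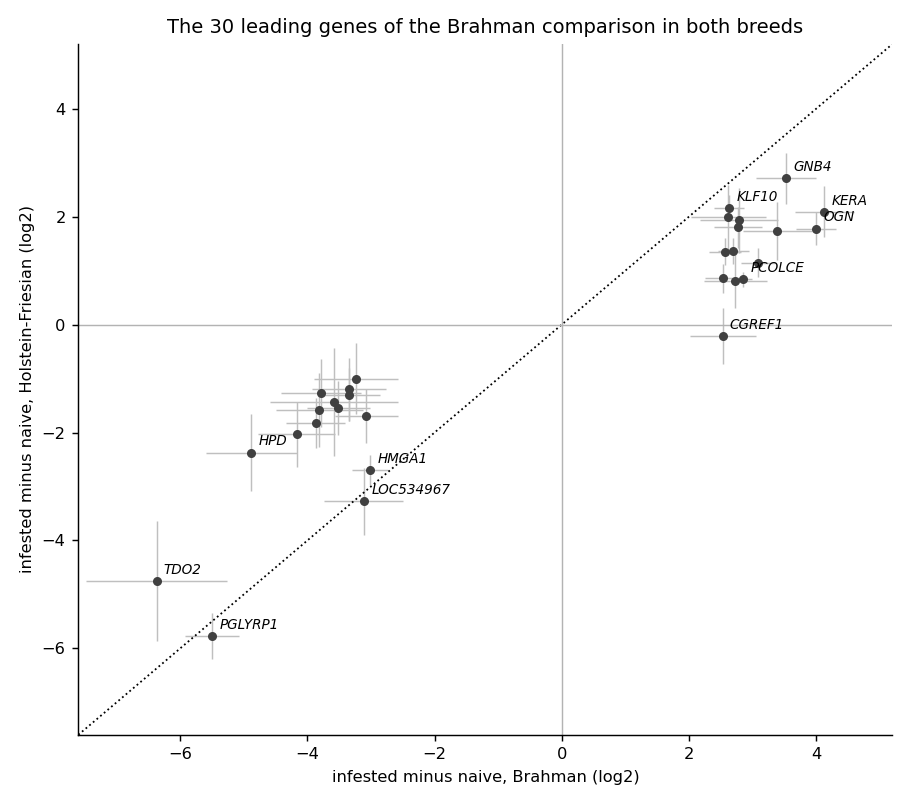
The change in Brahman skin (x axis, log2) is set against that in Holstein-Friesian skin (y axis, log2) for the 30 leading genes, with SE bars and a dotted line of equal change. The genes were chosen by their Brahman values, so a smaller Holstein-Friesian change is in part built in, and PCOLCE is the gene whose difference passed its test.

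When the difference between the breeds itself was tested, 1 of 24016 probe sets (0.00416%) passed, and 1792 had an unadjusted p under 0.05. It was PCOLCE, which rose by 2.85 in Brahman and 0.84 in Holstein-Friesian skin, a difference of 2.01 (adjusted p = 0.019). The breed difference of KERA, OGN and the collagens did not pass. The count was 15 without naive Brahman 1, 13 without infested Brahman 1, 2 without infested Brahman 3 and 390 without infested Holstein-Friesian 1, and 0 when any array of naive Holstein-Friesian, naive Brahman 2 or 3, infested Brahman 2 or infested Holstein-Friesian 3 was left out. The naive animals also differed in age between the breeds, and age and breed cannot be told apart there.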

How the data were processed

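Total RNA from skin was hybridised to Affymetrix bovine arrays, 1 per animal. The values analysed are the authors' deposited RMA values on the log2 scale, 1 per probe set and array, and RMA is named by the submitters' processing notes. RMA corrects background, quantile-normalises the arrays and summarises probes, so differences in total RNA are removed. Which software and version ran it is not given in the sources used here.

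After 112 control probe sets were left out, group means of all 12 arrays were fitted with limma 3.58.1 in R 4.3.3 (lmFit, eBayes) and p-values were adjusted over 24016 probe sets. Checks of this fit on simulated data were run first. Platform annotation gave 13292 probe sets 1 gene symbol, 86 several and 10638 none, and 13263 of the symbols were in the RefSeq gene table (ARS-UCD2.0), used for names and gene order only. Probe sets may share sequence with related genes.

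The text names the leading genes, up to 4 called members of each list by smallest p, defining markers of cell types, and all members of 4 small lists. Other genes, such as KRT19, SCD, MEG3, SOD1 and those that complete a short list, were added after their values were seen. The members and lists were chosen with earlier results of these data known. The precision is limited by the 3 arrays a group. Nothing beyond separate animals is stated of the replicates, so p-values measure the spread between these animals. Same-numbered arrays were not paired. No 2 arrays shared more than 0.104% identical values. Alternatives were scaling, a low-signal filter, other priors and weights, the Brahman arrays alone, a replicate block, the 5' index, and leaving out each array or the 2 of lowest index. The index without actin as a covariate was chosen after seeing the data. Sequences were not used here.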

Additional observations from a re-analysis of the deposited data

Results flagged for a closer look

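The change of PCOLCE between naive and infested skin differed between the breeds by 2.01 (log2), the 1 probe set whose breed difference passed the test (limma, adjusted p = 0.019). No probe set passed with the replicate block, or without any single naive Holstein-Friesian array, naive Brahman 2 or 3, infested Brahman 2 or infested Holstein-Friesian 3. All 3 infested Brahman arrays lay between 11.71 and 11.98 and all 3 naive ones between 8.95 and 9.17.

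The 5' index of control transcripts differed between infested and naive Brahman arrays by -1.54, a difference in measurements outside the comparison itself. The difference lay between -2.03 and -0.77 when 1 array was left out.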

How the results depend on the processing

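The count of 4753 probe sets (2292 higher, 2461 lower) moved by over 1.5 times under 4 settings other than leaving out 1 array. It was 3000 (1249 higher) with only the 6 Brahman arrays, 7657 (3774 higher, 3883 lower) with array weights, 2621 (1419 higher, 1202 lower) with the 5' index as a covariate, and 1808 (1009 higher, 799 lower) with the index without actin. Leaving out 1 array gave 2216 to 5567 (1092 to 2583 higher, 1124 to 2984 lower). The count moved by over 1.5 times without naive Brahman 1 (3154), naive Brahman 2 (2702) or naive Brahman 3 (2216). The count of breed differences, 1 as reported, was 2 after cyclic loess, 648 with array weights, 1131 without the 2 arrays of lowest index, 0 with the replicate block and 0 to 390 with 1 array left out. The causes were not tested.

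The replicate block gave 4765 calls. Same-numbered arrays deviated together with correlations of -0.189, -0.053 and -0.078, so the numbers were not taken as pairs. Of 216 named calls none reversed under any setting, 133 passed whichever array was left out, and the number that passed lay at 130 with the index, 93 with the index without actin, 148 with only the Brahman arrays and 201 with the block. With 3 arrays a group and many probe sets near background, small changes cannot be called, and a gene that did not pass is not shown to be unchanged.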

Other observations

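Other lists had few members past the threshold. No S100 gene of 9 and no immediate early gene of 17 passed. In the circadian clock list 2 of 5 genes were higher, HLF by 1.33 with another probe set at -1.17, and PER2 by 0.97, and neither passed with the 5' index (adjusted p of 0.0517 and 0.157). Without naive Brahman 2 or 3 or infested Brahman 1 or 2 the count was 1. Of 18 calcium channel, pump and calmodulin genes PPP3CA (0.91) and ITPR1 (0.97) rose and CALM3 (-1.10) and CALR fell. Other probe sets of ITPR1 fell by 1.12 and 0.94 (adjusted p of 0.0132 and 0.0375), and another rose by 0.45 (adjusted p = 0.0291). No member was lower without any single naive Brahman array and 1 without naive Holstein-Friesian 3, and ITPR1 and CALM3 did not pass with the index (adjusted p of 0.0908 and 0.331). Of 14 genes each, 1 of MHC class II (BOLA-DYA, -0.69) and 1 of MHC class I presentation (TAPBPL, -1.51) fell, and of 15 Toll-like receptor genes CD14 rose and NFKB2 (-0.67) fell. BOLA-DYA, TAPBPL and NFKB2 did not pass with the index (adjusted p of 0.22, 0.243 and 0.37) or without naive Brahman 2 or 3 (adjusted p up to 0.162). With 1 array left out, BOLA-DYA passed only when that array was infested Brahman 1 or infested Holstein-Friesian 1 or 3, and NFKB2 only when it was infested Brahman 2 or infested Holstein-Friesian 1 or 2. TAPBPL changed by -0.91 without infested Brahman 1. CALM3 also did not pass without infested Brahman 1 (adjusted p = 0.0947). These values come from the same limma fit and carry the same age difference between the groups.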
